A study of Mus musculus with 8 samples.

Results

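The genes described are 10 transcripts used as markers of reactive astrocytes, chosen by name out of the 22430 genes of the count table: Gfap, Vim, S100b, S100a6, Serpina3n, Cp, Cd44, Osmr, Stat3 and Aqp4. All 10 passed the filter on low counts that left 16730 genes to be tested. The 8 animals were male C57Bl/6JRj mice, of which 4 were 6 months old (6m) and 4 were 24 months old (24m), with no treatment and no altered allele named for either age. The labels describe the tissue as whole brain and, in the protocol, as a hemisphere, 1 per animal. Poly(A) RNA was sequenced in each, and each library gave 63460940 to 103462414 counts assigned to genes. Because a whole hemisphere was used, a level is a mean over all brain regions and cell types, and no region or cell type was separated.

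Astrocytes are the glial cells that take up glutamate and potassium, supply neurons with metabolites and wrap the brain's vessels with their endfeet. In injury, inflammation and ageing they can enter reactive states, in which the cytoskeleton, secreted proteins and surface receptors change. Signalling by cytokines of the interleukin-6 (IL-6) family through gp130, Janus kinases (JAK) and Stat3 is a known route into such states, and Gfap is a known target of Stat3. None of the 10 genes is made by astrocytes alone. Vim and S100a6 are also made by vascular, meningeal and ependymal cells, S100b by oligodendrocytes, Cp by choroid plexus, and Cd44, Osmr and Stat3 by immune and vascular cells.

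Between 6m and 24m, 7 of the 10 genes rose and 1 fell by the quasi-likelihood test of edgeR. A gene was called when its p-value, adjusted over all genes by the Benjamini-Hochberg method, was at most 0.05 and its log2 fold change was at least 0.58 in size. The genes that rose were Gfap, Serpina3n, Cp, Cd44, Osmr, Stat3 and Aqp4, by 1.52-fold (Cp) to 3.96-fold (Cd44), and the gene that fell was S100b. Vim passed the p-value but not the fold-change threshold, and S100a6 passed neither. Of all genes tested, 43.6% were called, 25.3% as higher and 18.3% as lower in 24m, and 62.6% had an adjusted p of at most 0.05 at any fold change. The median log2 fold change of the 10 genes was 1.46, beside -0.0034 over all genes tested. All 24m libraries lay above all 6m libraries in 8 of the 10 genes, Vim included, as in 28.4% of all genes tested, and below them in S100b. Groups that did not overlap in either direction were found in 55.2% of genes tested. In such bulk RNA, more cells of a type and more RNA per cell cannot be told apart.

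Some properties of the libraries touched these values. The library 24m replicate 1 was the deepest and stood apart from the other 24m libraries. Chi-square comparison of its counts with theirs gave 179.5 to 417 per degree of freedom, beside 12.97 to 61.2 among the other three. Fold changes of all genes also varied with transcript length. Genes with under 2500 bases of exon had a median log2 fold change of -0.59, those of 5000 bases or more a median of 0.25. S100b (1997 bases) and S100a6 (2352 bases) were the shortest of the 10, and Osmr (12398 bases) and Cp (11205 bases) the longest. For each of the 10 genes, the log2 fold change is therefore also given without 24m replicate 1 and with the length trend removed, the latter by a smoothed offset per library. No label gave a batch.

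**Figure D1:**
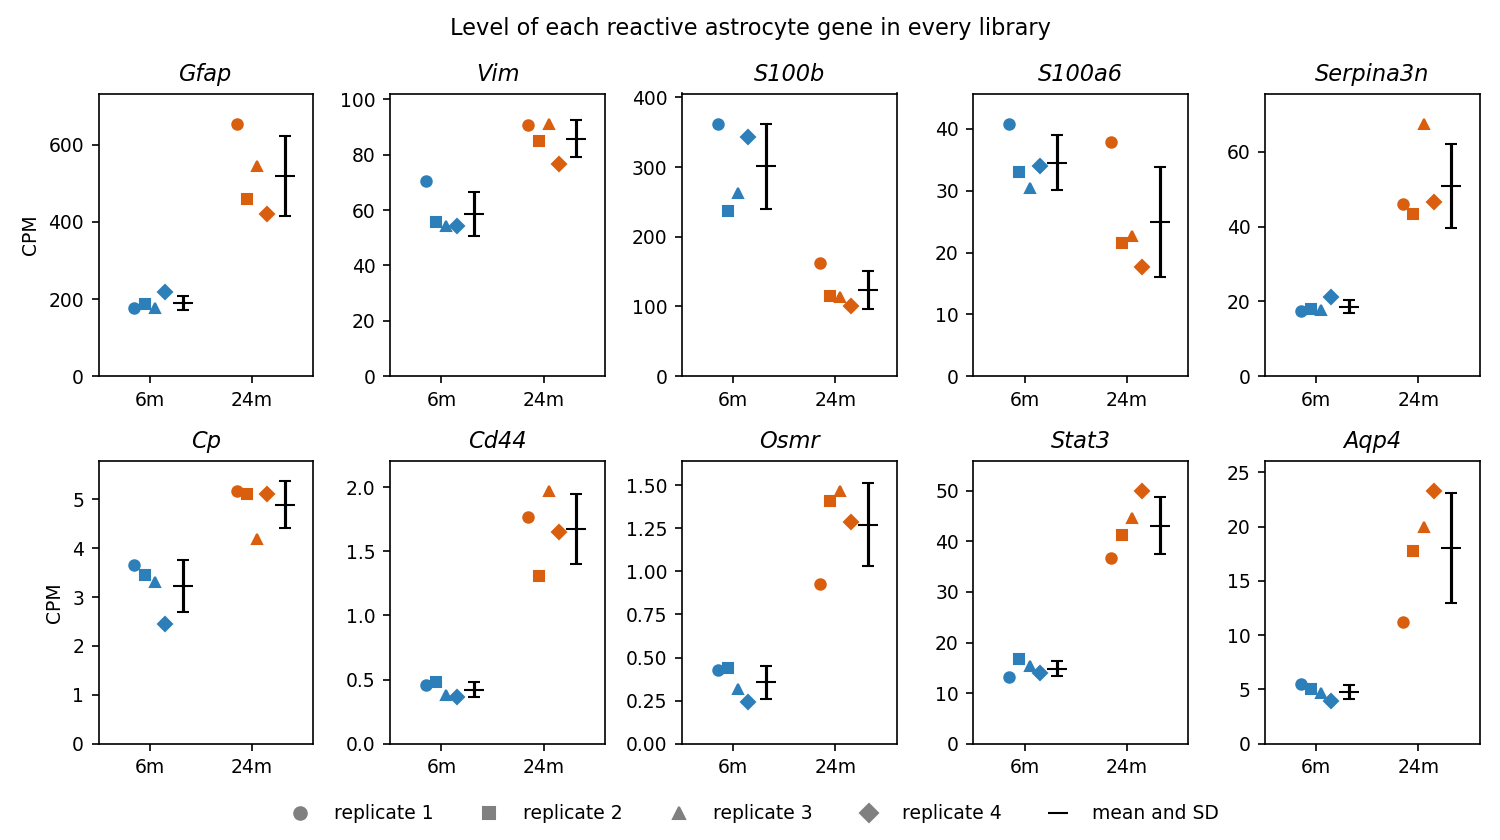
Level of each gene in CPM (counts scaled to a library of 1e+06, vertical axis, from 0) in the 4 libraries of 6m (blue) and of 24m (orange), with the symbol giving the replicate and the black bar the mean ± SD. The groups overlap in S100a6 only, and 24m replicate 1 is the highest 24m library in Gfap (654.4 CPM) and the lowest in Aqp4 (11.2 CPM).

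The intermediate filament proteins were considered first. Gfap encodes the glial fibrillary acidic protein, the main filament of the mature astrocyte and the customary marker of reactivity (GRCm39, chromosome 11, 102778159 to 102791738, minus strand). Its level, in counts scaled to a library of 1e+06 (CPM), was 177, 188, 177 and 217 CPM in 6m replicates 1 to 4, and 654, 460, 546 and 419 CPM in 24m replicates 1 to 4. Each 24m library was above each 6m library, with 24m replicate 1 the highest of all. The means were 189.7 ± 19.2 and 519.9 ± 104.1 CPM (SD, n = 4 each), a 2.74-fold rise, which is 1.45 ± 0.14 on the log2 scale (SE, adjusted p = 6.5e-05). The log2 value was 1.35 without 24m replicate 1 and 1.37 with the length trend removed. No other annotated gene overlapped it.

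Vim encodes vimentin, the filament of immature astrocytes and of mesenchymal and vascular cells, which is made again in reactive astrocytes (chromosome 2, 13578738 to 13587639, plus strand). It was measured at 70.6, 55.6, 54.2 and 54.3 CPM in 6m and at 90.7, 84.9, 91.1 and 76.5 CPM in 24m. All 24m libraries lay above all 6m libraries, with 6m replicate 1 the nearest to them. The log2 difference of 0.55 ± 0.11 (adjusted p = 0.0018) was under the fold-change threshold. It was 0.54 without 24m replicate 1 and 0.55 with the length trend removed. It passed the threshold without 6m replicate 1 (0.65), without 24m replicate 4 (0.60) and with quantile normalization before DESeq2 (0.60, adjusted p = 7.9e-07). It did so too with scaling by library totals alone (0.76). An annotated gene on the opposite strand, Gm54102, shares exonic bases with Vim, and whether strand was used in counting was not stated.

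Of the 2 genes for S100 proteins, which are small and bind calcium, S100b fell and S100a6 was not called. S100b is an abundant astrocyte protein that is also secreted (chromosome 10, 76085090 to 76097159, plus strand). Its level was 362, 237, 263 and 343 CPM in 6m and 163, 116, 114 and 101 CPM in 24m. The lowest 6m library was above the highest 24m library, and within 24m replicate 1 was the highest. S100b fell 2.44-fold, and its log2 fold change was -1.29 ± 0.18 (adjusted p = 0.00032). The call held without 24m replicate 1 (-1.43) and with the length trend removed, where the size was smaller (-0.82, adjusted p = 0.00032).

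S100a6, known as calcyclin, is made by a part of the astrocytes and by many non-neural cells (chromosome 3, 90520140 to 90535843, plus strand). It stood at 40.8, 33.0, 30.5 and 33.9 CPM in 6m and at 37.9, 21.6, 22.7 and 17.7 CPM in 24m. The groups overlapped through 24m replicate 1, which was above 3 of the 4 libraries of 6m. The log2 difference was -0.47 ± 0.21 (adjusted p = 0.081). Without that library it was -0.72 ± 0.12 (adjusted p = 0.00031) and past both thresholds, and with the length trend removed it was -0.10 (adjusted p = 0.60).

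The other S100 genes that could be tested numbered 10, and 5 of them fell, with a median log2 fold change of -0.95, or -0.61 with the length trend removed. None was called higher by edgeR, 0 had an unadjusted p under 0.05 in that direction, and 0 were called higher by DESeq2 or limma-voom. S100a13 fell from a mean of 51.1 to 24.1 CPM (log2 fold change -1.08), and S100a10, which joins annexin A2, from 60.2 to 30.2 CPM (-0.99). S100a11 (-0.86) and S100a9 (-1.40), a protein of neutrophils and monocytes, fell with groups that overlapped. With the length trend removed 3 of the 10 were called lower, and without 24m replicate 1 there were 8. Their exonic lengths differed widely: S100a9 has 1276 and S100a11 2673 bases, and S100a13 4708 and S100a10 6944 bases. S100a13 (-1.09) and S100a10 (-1.18) kept their calls with the length trend removed.

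The secreted proteins both rose. Serpina3n encodes a serine protease inhibitor of the α1-antichymotrypsin group, which reactive astrocytes secrete (chromosome 12, 104372810 to 104380597, plus strand). Its level was 17.4, 17.9, 17.7 and 21.1 CPM in 6m and 46.0, 43.3, 67.5 and 46.7 CPM in 24m. Every 24m library was above all those of 6m, and replicate 3 was the highest. The rise was 2.75-fold, or 1.46 ± 0.15 in log2 (adjusted p = 7.1e-05), and it was 1.52 without 24m replicate 1 and 1.56 with the length trend removed. Serpina3n lies in a cluster of close copies among which reads could be split. The 9 others found in the table summed to 1.29 to 1.86 CPM in 6m and 1.11 to 3.18 CPM in 24m, and 2 of them were at 0 in all libraries.

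Cp encodes ceruloplasmin, a copper protein that oxidises iron for its export and is anchored on astrocytes or secreted (chromosome 3, 20011090 to 20063930, plus strand). It was measured at 3.66, 3.45, 3.32 and 2.45 CPM in 6m and at 5.16, 5.10, 4.18 and 5.11 CPM in 24m. The 24m libraries were above those of 6m, by a small step from 3.66 to 4.18 CPM between the nearest. The log2 fold change of 0.60 ± 0.15 (adjusted p = 0.0063) was just past the threshold, as it was without 24m replicate 1 (0.59). The call was lost with the length trend removed (0.20, adjusted p = 0.30), with quantile normalization before DESeq2 (0.27, adjusted p = 0.10), after thinning to equal depth (0.56) and without 6m replicate 4 (0.49). Cp shares exonic bases with Hps3 on the opposite strand.

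Among 8 tested partners of Cp in iron and copper handling, 3 rose and 2 fell. Without 24m replicate 1, 5 were called higher and 2 lower, and with the length trend removed 2 were called higher and 1 lower. The transferrin receptor Tfrc rose from 4.30 to 14.2 CPM (log2 fold change 1.73), the copper pump Atp7a from 0.533 to 1.64 CPM (1.61), and the related iron oxidase Heph from 2.65 to 4.76 CPM (0.84). For Heph the groups overlapped, and the call was lost with the length trend removed (0.34). The iron store subunit Fth1 fell from 9461 to 4829 CPM (-0.97).

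The receptors Cd44 and Osmr and the signalling protein Stat3 all rose. Cd44 is the surface receptor for hyaluronan (chromosome 2, 102641486 to 102732010, minus strand). Its level was 0.457, 0.481, 0.382 and 0.363 CPM in 6m and 1.77, 1.31, 1.97 and 1.65 CPM in 24m, from 23 to 34 counts in 6m and 105 to 183 counts in 24m. The lowest 24m library exceeded the highest 6m library. The rise was 3.96-fold, or in log2 1.99 ± 0.19 (adjusted p = 5.6e-05). It was 1.98 without 24m replicate 1 and 1.81 with the length trend removed. Gm57471 on the opposite strand shares exonic bases with it.

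Osmr encodes the receptor subunit for oncostatin M, which signals together with gp130 (chromosome 15, 6843053 to 6904450, minus strand). Its level was 0.427, 0.438, 0.315 and 0.242 CPM in 6m and 0.927, 1.41, 1.47 and 1.28 CPM in 24m, from 16 to 31 counts and from 96 to 122 counts respectively. The groups did not overlap, and 24m replicate 1 was the lowest of its age. The log2 fold change was 1.83 ± 0.24 (adjusted p = 0.00024), and it was 1.97 without that library and 1.37 with the length trend removed. Osmr was too low to be tested under a filter of 1 CPM in 4 libraries.

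Stat3 encodes the transcription factor that carries IL-6 family signals to the nucleus (chromosome 11, 100775924 to 100830450, minus strand). It was measured at 13.3, 16.8, 15.3 and 14.1 CPM in 6m and at 36.6, 41.2, 44.6 and 49.9 CPM in 24m. The gap between the groups was wide against the spread in each, with means of 14.9 ± 1.52 and 43.1 ± 5.59 CPM (SD, n = 4 each). The rise was 2.90-fold, or in log2 1.54 ± 0.12 (adjusted p = 2.4e-05). It was 1.63 without 24m replicate 1 and 1.15 with the length trend removed. Stat3 shares exonic bases with Stat5a and Gm46295 on the opposite strand.

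Aqp4 encodes the water channel of the astrocyte endfoot (chromosome 18, 15522451 to 15544039, minus strand). Its level was 5.49, 5.05, 4.64 and 3.92 CPM in 6m and 11.2, 17.7, 20.0 and 23.3 CPM in 24m. The groups did not overlap, and 24m replicate 1 was the lowest of its age by a wide step. The rise was 3.78-fold, or in log2 1.92 ± 0.22 (adjusted p = 0.00011). It was 2.11 ± 0.14 without that library and 1.75 with the length trend removed. The 24m libraries thus stood in unlike orders in Gfap and Aqp4: replicate 4 was the lowest in Gfap and the highest in Aqp4, and replicate 1 the reverse.

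**Figure D2:**
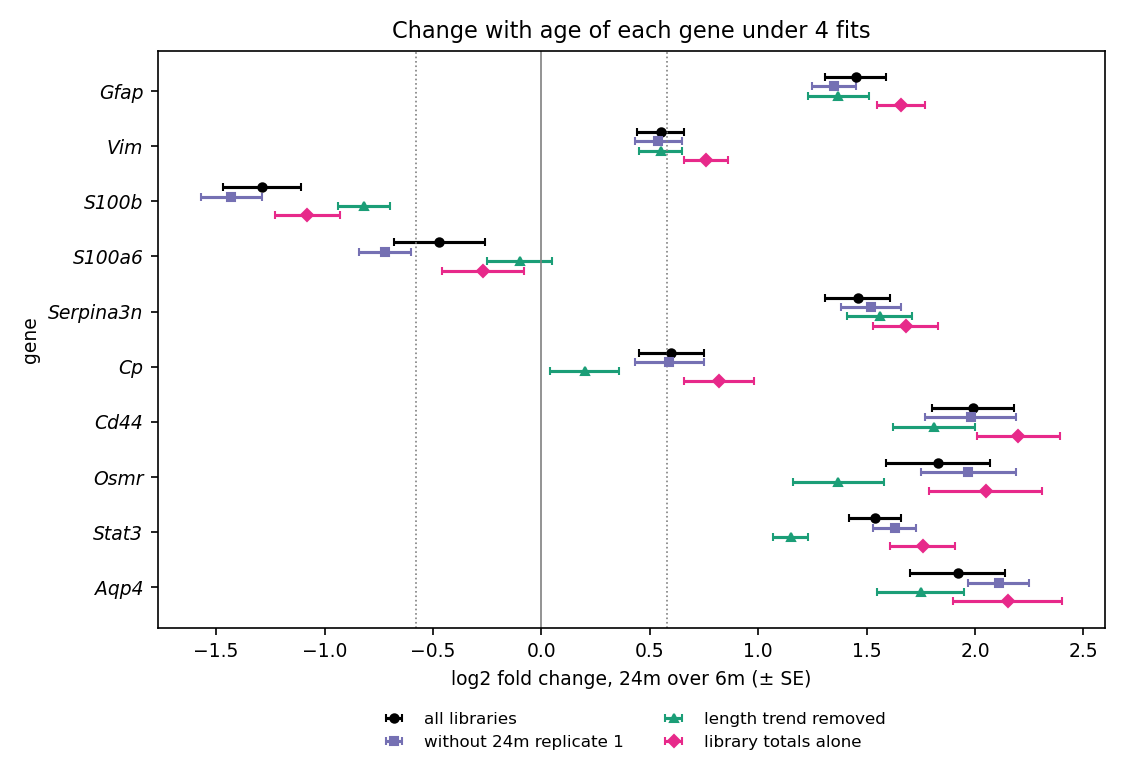
Log2 fold change of 24m over 6m (horizontal axis, point ± SE) of each gene under 4 fits: all libraries, without 24m replicate 1, with the length trend removed, and scaled by library totals alone. The dotted lines mark a log2 fold change of -0.58 and 0.58. No gene changes sign, and Vim, S100a6 and Cp lie across a dotted line in at least 1 fit.

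Scaling bore on the calls near the threshold. With library totals alone as the scaling, the median of all genes tested moved to a log2 fold change of 0.21 and each of the 10 genes moved up with it. Gfap then had 1.66, Vim 0.76, S100b -1.08 and S100a6 -0.27, so that the directions of all 10 were kept and Vim was called. Under this scaling 75.7% of all calls were higher in 24m, beside 58.1% with the TMM factors, and 47.9% with quantile normalization.

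Levels of different genes were compared per kilobase of exon. In 6m, S100b was the highest, at 150.7 ± 30.4 CPM per kb, followed by Gfap at 33.2 ± 3.36 CPM per kb. S100a6 (14.7 CPM per kb) and Vim (12.3 CPM per kb) came next and overlapped over the libraries. They were followed, without overlap between neighbours, by Serpina3n (4.74), Stat3 (1.47), Aqp4 (0.728), Cp (0.287), Cd44 (0.0621) and Osmr (0.0287 CPM per kb). In 24m, Gfap stood first at 91.0 ± 18.2 CPM per kb and S100b second at 61.6 ± 13.7 CPM per kb, and these overlapped over the libraries. Vim (18.1), Serpina3n (13.02) and S100a6 (10.6 CPM per kb) formed a row in which each overlapped the next. The 5 lowest genes kept the order they had in 6m, each with no overlap with the next. These values rest on the union of all annotated exons, not on the isoforms present.

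The data do not separate astrocytes, so the 10 genes were also set against 13 genes of resting, homeostatic astrocytes. Of these, 7 rose and 6 were not called, with a median log2 fold change of 0.59. The log2 fold change was negative, and not called, in Aldoc (-0.29), the highest of the 13 in CPM, in Aldh1l1 (-0.26) and in Gjb6 (-0.05). The summed level of the 13 overlapped between the ages, at 4721 to 5733 CPM in 6m and 5280 to 5707 CPM in 24m. The potassium channel Kcnj10 rose from 4.36 to 35.0 CPM (log2 fold change 3.01), the glutamate transporter Slc1a3 from 55.9 to 206.8 CPM (1.89), the bicarbonate transporter Slc4a4 from 11.9 to 40.9 CPM (1.77) and the growth factor receptor Fgfr3 from 90.7 to 136.9 CPM (0.59). Fgfr3 was under the fold-change threshold with the length trend removed (0.26). In Kcnj10, Slc1a3 and Slc4a4, as in Aqp4, 24m replicate 1 was the lowest 24m library and replicate 4 the highest. The mean log2 CPM of the 13 genes was 6.24 to 6.42 in the 6m libraries and 6.86 to 7.41 in those of 24m.

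Each gene's log2 CPM was then taken less that mean in the same library, as a description without a test. Relative to homeostatic genes, Aqp4 stood at -4.38 to -3.78 in 6m and at -3.37 to -2.87 in 24m. Cd44 stood at -7.73 to -7.29 and at -6.74 to -6.02, and Osmr at -8.26 to -7.38 and at -7.02 to -6.63. Stat3 stood at -2.55 to -2.35 and at -1.79 to -1.66, and Serpina3n at -2.26 to -1.96 and at -1.87 to -1.13. Against this mean, these 5 of the 10 genes were thus higher in 24m with no overlap of the ages, as were 8.29% of all genes tested on the same scale. Gfap was not separated: it stood at 1.13 to 1.40 in 6m and at 1.30 to 2.50 in 24m, where 24m replicate 4 was below 6m replicate 4. Vim and Cp overlapped as well, with relative means lower in 24m by 0.27 and 0.21 in log2. S100b stood at 1.47 to 2.26 and at -0.76 to 0.49, and S100a6 at -1.41 to -0.89 and at -3.26 to -1.61, both lower in 24m with no overlap, as were 61.1% of all genes tested. The length trend was not removed from these relative levels. S100b and S100a6, at 1997 and 2352 bases, were set against 13 genes of 3919 to 14595 bases. In either direction, 7 of the 10 and 69.4% of all genes tested were separated. The result depended on the reference. With the median of the 13 genes in place of their mean, 4 genes were separated in place of 7: Stat3 was higher in 24m, and Vim, S100b and S100a6 were lower. On that scale 75.4% of all genes tested were separated, 2.69% as higher and 72.7% as lower. Serpina3n, Cd44, Osmr and Aqp4 then overlapped, with relative means higher in 24m by 0.26, 0.74, 0.60 and 0.69 in log2.

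**Figure D3:**
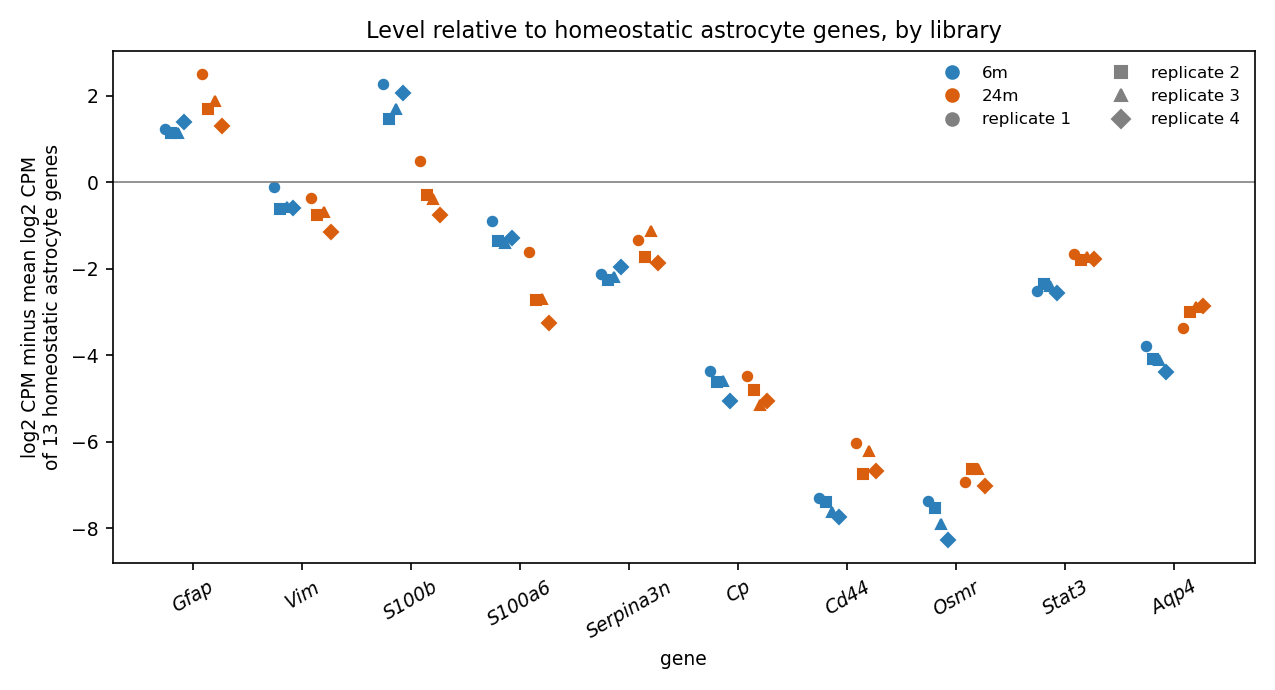
Log2 CPM of each gene less the mean log2 CPM of 13 homeostatic astrocyte genes in the same library (vertical axis), for 6m (blue) and 24m (orange), the symbol giving the replicate. Serpina3n, Cd44, Osmr, Stat3 and Aqp4 lie higher in all 24m libraries, S100b and S100a6 lower, while Gfap, Vim and Cp overlap; with the median of the 13 genes as the reference, Stat3 alone stays higher without overlap.

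Cytokines, receptors and kinases upstream and downstream of Osmr and Stat3 were described from lists. The IL-6 family ligands were low. Of the 9 listed, 7 could be tested, with a median log2 fold change of -0.30, or 0.02 with the length trend removed. Osm, the ligand of Osmr, averaged 0.153 ± 0.0687 CPM over the 6m libraries and 0.149 ± 0.0392 CPM over those of 24m (log2 fold change -0.03 ± 0.38). Il6 was at 0.0188 and 0.0438 CPM and too low to be tested.

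Of the 5 receptor genes besides Osmr, 3 rose, 1 fell and 1 was not called. Il6st, which encodes gp130, the subunit shared by the whole family, was at 7.59, 9.66, 8.67 and 8.62 CPM in 6m and at 23.3, 32.3, 35.6 and 44.2 CPM in 24m. All 24m libraries were well above those of 6m, with replicate 1 the lowest (log2 fold change 1.97 ± 0.18, adjusted p = 4.8e-05). Lifr, the receptor subunit for leukaemia inhibitory factor, rose from 1.74 to 4.67 CPM (1.42). The receptor Il11ra1 fell from 101.7 to 59.0 CPM (-0.78), a call that was lost with library totals alone (-0.57).

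Among 18 genes for Janus kinases, other STAT proteins and their inhibitors, 8 rose and 10 were not called, with a median log2 fold change of 0.47, or 0.25 with quantile normalization. With the length trend removed, 8 were called higher and 2 lower, Socs2 (-0.64) and Pias1 (-0.63), both inhibitors. The phosphatase Ptpn11 (SHP2), which binds gp130, rose from 29.1 to 86.3 CPM (1.57). Stat5b rose from 12.6 to 34.2 CPM (1.44) and Stat2 from 11.9 to 18.5 CPM (0.63). Stat2 was under the fold-change threshold with the length trend removed (0.49).

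The remaining partners were mixed. In 12 other intermediate filament genes and linkers, 2 rose, 1 fell and 9 were not called. Synemin (Synm), a filament partner of Gfap and Vim, was at 4.47, 5.40, 5.66 and 3.69 CPM in 6m and at 7.80, 19.2, 21.9 and 28.7 CPM in 24m. All 24m libraries were above those of 6m, with replicate 1 far below the other three (log2 fold change 2.01 ± 0.34, adjusted p = 0.00082). The linker Plec rose (0.70), but not with the length trend removed (0.10), and the neuronal filament Prph fell from 25.9 to 9.33 CPM (-1.47).

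Of 10 genes of the dystrophin complex that holds Aqp4 at the endfoot, 4 rose and 6 were not called. Dystroglycan (Dag1), which ties the complex to the basal lamina, rose from 12.6 to 55.8 CPM (2.14), Dmd from 3.15 to 7.34 CPM (1.22) and Dtna from 23.4 to 44.2 CPM (0.91). Dmd and Dtna are very long, with 24041 and 20918 bases of exon, and had 0.52 and 0.27 with the length trend removed, and the groups overlapped in Dmd. Dtnb, another dystrobrevin, was lower in all 24m libraries at a log2 value of -0.56 (adjusted p = 0.00024), short of the threshold, and was called lower with the length trend removed (-1.12). Of 5 other aquaporins tested, Aqp6 (0.78) and Aqp1 (0.77), the water channel of the choroid plexus, rose and Aqp5 fell (-1.25).

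Of 10 tested hyaluronan genes and Cd44 partners, 1 rose and 2 fell. Moesin (Msn), which links the tail of Cd44 to actin, rose from 6.74 to 19.5 CPM (1.53), while its relative Rdx fell from 77.5 to 40.6 CPM (-0.93). Has3, a hyaluronan synthase, fell from 45.4 to 21.7 CPM (-1.07).

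Other genes in use as markers of reactive states were split. Of 6 tested pan-reactive genes besides the 10, 2 rose, 1 fell and 3 were not called. The sphingosine phosphate receptor S1pr3 rose from 0.878 to 3.10 CPM (log2 fold change 1.82), and the small heat shock gene Hspb1 fell from 24.6 to 12.2 CPM (-1.01) with groups that overlapped, a call that was lost with the length trend removed (-0.34). Of 12 genes of the A1 type, linked to inflammation, 4 rose and 8 were not called. Gbp2, an interferon-induced GTPase, rose from 1.33 to 3.74 CPM (1.49), with 24m replicate 1 at 6.81 CPM and the others at 2.55 to 2.98 CPM. Fkbp5, a target of glucocorticoids, rose from 14.9 to 28.9 CPM (0.95) but was under the fold-change threshold with the length trend removed (0.53). Of 11 tested genes of the A2 type, linked to ischaemia, 4 rose (3 by DESeq2) and 3 fell (1 with library totals alone). Ptgs2 rose from 1.66 to 3.33 CPM (1.00), and S100a10 (-0.99), Tm4sf1 (-0.77) and Sphk1 (-0.59) fell, the last with groups that overlapped. Sphk1 and Tm4sf1 were above -0.58 with library totals alone (-0.38 and -0.56).

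**Figure D4:**
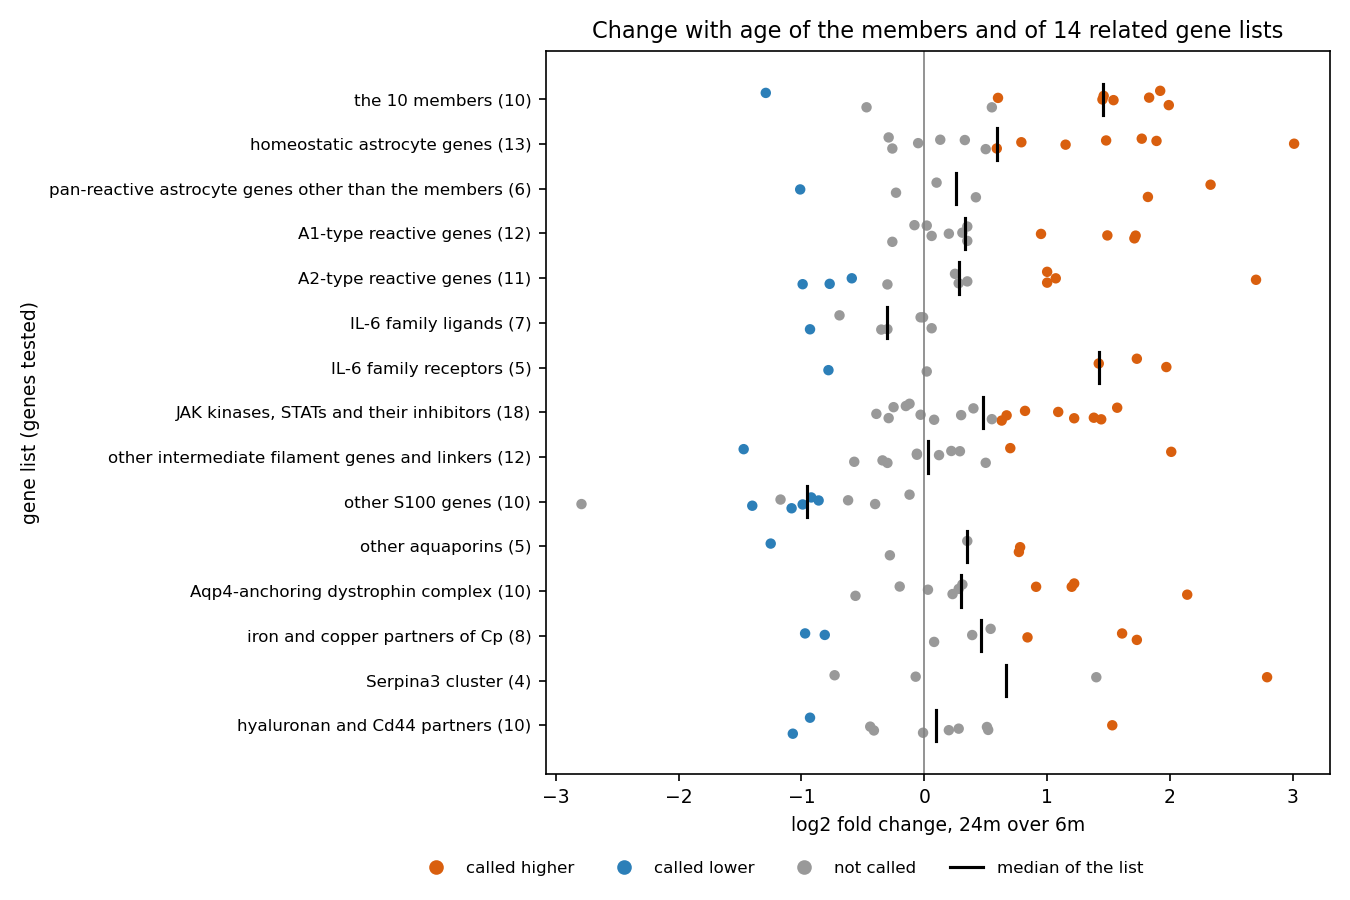
Log2 fold change of 24m over 6m (horizontal axis) of the 10 genes and of the tested genes of 14 related lists (vertical axis, number tested in brackets). Each point is a gene, coloured by its call, and the black bar is the median, which is 1.46 for the 10 genes, 0.59 for the homeostatic astrocyte genes and -0.95 for the other S100 genes.

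By the shape of its values over the 8 libraries, Gfap was most like genes of other functions. The likeness was the root mean square difference of log2 CPM, each gene centred on its own mean, so that a smaller value is a closer pattern. Of the 13537 genes compared, Oasl2, an interferon-induced gene, was the nearest at 0.123, followed by Lgals3bp at 0.158 and Lyz2, the lysozyme of microglia and macrophages, at 0.166. Oasl2 was at 2.30 to 2.59 CPM in 6m and at 8.42, 5.99, 7.19 and 5.67 CPM in 24m. It shared with Gfap the order of the 24m libraries, with replicate 1 first and replicate 4 last. Of the other members, Serpina3n was the nearest to Gfap at 0.219, with 34 genes closer, followed by Stat3 at 0.308 with 188 closer and Cd44 at 0.338 with 309 closer. Aqp4 stood at 0.528, with 2262 genes closer.

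Markers of the cell types in a hemisphere also moved with age. Of 11 general astrocyte markers, 6 rose, 1 fell and 4 were not called, and all were detected. The 11 included Gfap, Aqp4 and S100b, and the median log2 fold change of the 11 was 0.79. The summed level of the 11 was 4031 to 4968 CPM in 6m and 4500 to 5132 CPM in 24m, which overlapped. Aldh1l1, at 169.5 and 141.5 CPM, was not called (log2 fold change -0.26). Of 11 microglia markers, 2 rose and 9 were not called, and the summed level was 704 to 781 CPM in 6m and 649 to 992 CPM in 24m. Of 10 oligodendrocyte markers, which bear on S100b, 2 rose and 8 were not called, at 3473 to 4336 and 3750 to 4344 CPM. Of 8 markers of oligodendrocyte precursors, 3 rose and 5 were not called, at 603 to 649 and 694 to 776 CPM, with log2 fold changes from -0.35 (Neu4) to 2.05 (Pdgfra) and a median of 0.49. Of 10 neuronal markers, 4 rose and 1 fell, at 4667 to 5128 and 5407 to 5718 CPM, with log2 fold changes from -0.63 (Tubb3) to 3.09 (Map2) and a median of 0.41. Of 9 ependymal markers, which bear on Vim and S100a6, 8 fell, at 58.9 to 74.1 and 33.3 to 55.1 CPM, and 3 were called lower with the length trend removed. Of 10 endothelial markers, which bear on Vim, Cd44, Osmr and Stat3, 2 rose and 3 fell, at 81.7 to 117.3 and 49.0 to 78.2 CPM. Of 10 pericyte and smooth muscle markers, 3 rose and 3 fell, at 203.4 to 267.4 and 164.1 to 198.8 CPM. Of 10 markers of meninges and fibroblasts, which bear on Vim and S100a6, 1 rose and 1 fell, with a median log2 fold change of 0.00. Their sum, at 2445 to 3239 and 1311 to 2089 CPM, was mostly Ptgds, at means of 2642 and 1563 CPM. Choroid plexus markers, which bear on Cp, were 10, of which 3 rose and 1 fell (3 fell by DESeq2 and by limma-voom), at 1789 to 3217 and 835 to 2270 CPM. This sum was mostly Ttr, at means of 2452 and 1416 CPM, and the median log2 fold change was 0.05. All 5 red blood cell markers fell, from 5426 to 7604 CPM to 1242 to 4156 CPM. Of 7 tested lymphocyte and plasma cell markers, edgeR called 2 higher and 1 lower, DESeq2 and limma-voom each 0 higher and 1 lower, and edgeR without 24m replicate 1 called 1 higher and 3 lower. Their summed level was 71.1 to 78.5 CPM in 6m and 46.9 to 1159 CPM in 24m. The log2 fold change of Igkc was 6.94, and 2.37 without 24m replicate 1, and that of Jchain 3.63 and 0.84. The part of these cell types in the values of the 10 genes was not tested.

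Sequences were examined at the start sites because Stat3 is both a member and a regulator, and the letters TTCNNNGAA are the common core of STAT binding. They read the same on both strands. RefSeq promoter windows (GRCm38.p6), each with 250 bases before and 50 after a start, were searched for 9 of the 10 genes. Aqp4 was left out of this search. Among the windows of these 9 genes, only that of Gfap held the letters, where 8.30% of all 32851 promoter windows did. The windows of Gfap, of Serpina3n, which rose by nearly the same factor, and of S100b, which fell, are given 5′ to 3′ with TTCNNNGAA in capitals. They lie on chr11:102897151-102897450 (minus strand), chr12:104406458-104406757 (plus strand) and chr10:76253586-76253885 (plus strand).
Gfap: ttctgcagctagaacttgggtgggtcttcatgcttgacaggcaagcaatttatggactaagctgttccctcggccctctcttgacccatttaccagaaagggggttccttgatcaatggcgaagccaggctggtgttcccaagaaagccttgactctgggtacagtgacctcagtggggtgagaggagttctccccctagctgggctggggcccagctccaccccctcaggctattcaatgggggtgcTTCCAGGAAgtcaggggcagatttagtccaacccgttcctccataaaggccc
Serpina3n: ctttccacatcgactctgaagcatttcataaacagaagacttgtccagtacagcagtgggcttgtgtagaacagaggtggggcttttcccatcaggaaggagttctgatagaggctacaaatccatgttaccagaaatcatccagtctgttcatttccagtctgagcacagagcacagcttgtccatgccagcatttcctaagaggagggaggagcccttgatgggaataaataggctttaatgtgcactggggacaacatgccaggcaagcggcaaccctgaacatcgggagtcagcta
S100b: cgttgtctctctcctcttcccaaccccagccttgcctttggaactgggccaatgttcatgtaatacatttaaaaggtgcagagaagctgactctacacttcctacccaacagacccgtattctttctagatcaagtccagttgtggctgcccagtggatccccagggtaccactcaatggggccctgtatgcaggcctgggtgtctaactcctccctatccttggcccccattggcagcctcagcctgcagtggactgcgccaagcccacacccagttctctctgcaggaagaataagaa
The TATA letters TATAAA, searched on both strands, were found in the windows of Vim and of Cp, and in 13.6% of all windows.

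In the 2000 bases before the start of the canonical GENCODE transcript (GRCm39), 5 of the 10 genes held TTCNNNGAA, where 46.9% of 16673 tested genes did. Gfap, Vim and Aqp4 had 2 matches each, S100a6 and Osmr 1 each, and the others 0. The share is close to the background. The matches of the genes on other chromosomes than that of Aqp4 are given with 9 bases on each side, in the direction of the gene and with the letters in capitals, to show how they differ in the 3 free bases.
Gfap, chr11:102789932-102789940, 1755 bases before the start: tagttggctTTCTGTGAAttccatacc
Gfap, chr11:102789464-102789472, 1287 bases before the start: ttcgatgctTTCCGAGAAgtctattga
Vim, chr2:13577318-13577326, 1445 bases before the start: accgcagcaTTCCCAGAActgactgag
Vim, chr2:13577949-13577957, 814 bases before the start: ccgaactcaTTCACCGAAttggatttt
S100a6, chr3:90519441-90519449, 699 bases before the start: tcctctcccTTCCAGGAAcacccctcc
Osmr, chr15:6904786-6904794, 344 bases before the start: aaaagatccTTCCCTGAAttgtcatta
Matches were thus present before Gfap, Osmr and Aqp4, which rose, and before Vim and S100a6, which were not called. The windows of Serpina3n, Cp, Cd44 and Stat3, which rose, and of S100b, which fell, held none. A match is a run of letters and does not show that a factor binds there.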

How the data were processed

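Per the labels, poly(A) RNA of 4 brains of 6 months and 4 of 24 months was made into directional libraries. According to the submitters' processing notes and the study's methods, reads were trimmed with Trim Galore 0.4.11, aligned to GRCm39 with HISAT2 2.1.0 and assigned to Ensembl genes with featureCounts. The authors deposited whole-number counts per gene and library without normalization, each library separately. Use of strand and of multimapping reads was not given in the sources used here. The authors normalized by quantiles and used DESeq2 in their own analysis, and here the deposited counts were used.

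Of 22430 genes, 22281 matched GENCODE vM39, a later annotation of GRCm39 that gave positions and exon lengths, and the 149 others held 0.312% of counts. A gene was tested if over 5 counts were found in 4 or more libraries (16730 genes). Ages were compared in edgeR 4.0.16 under R 4.3.3 by the quasi-likelihood method, scaled by TMM (trimmed mean of M values) and with no term but age. Standard errors were the log2 fold change over the square root of F, CPM used TMM library sizes, and log2 CPM a prior count of 2. As a check of the code, the fit was also run on counts simulated from its own fitted dispersions. That simulation held no length trend and no library that stood apart, so it says nothing of those. Replicates were separate animals, and no pair of libraries agreed within sampling noise (chi-square of at least 8.18 per degree of freedom).

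Alternatives were other scalings, quantile normalization, DESeq2 1.42.0, limma-voom (limma 3.58.1), other filters and thresholds, thinning to 63460940 counts, removal of the trend over exon length (span 0.3), a replicate block, and each library left out. The members and the gene lists were chosen with earlier results of these data known, so they give no independent support. Of each list, named genes were the called genes with the largest and the smallest log2 fold change among those of at least 1 CPM on average, with up to 2 more of the next largest size. Osm, Il6, Socs2, Pias1, Dtnb, Aqp5, Aldh1l1, Aldoc, Gjb6, Ptgds, Ttr, Igkc, Jchain, Neu4, Pdgfra, Tubb3 and Map2 were named after their values were seen. The 3 genes nearest to Gfap were taken among genes of at least 1 CPM with a symbol that is not a clone name. Single values of 2 list genes that this rule names are not reported here.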

Additional observations from a re-analysis of the deposited data

Results flagged for a closer look

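In 4 of the 20 groups of 4 libraries examined (each of the 10 genes at each age), a library lay apart from the other three by more of its group's range than Dixon's 95% critical value for 4 values, which chance exceeds in about 1 in 20 groups. Vim was at 70.6 CPM in 6m replicate 1 (gap 0.911 of the range). The log2 difference of Vim was 0.55 with all libraries and 0.65 without this library. Serpina3n was at 21.1 CPM in 6m replicate 4 (gap 0.856) and at 67.5 CPM in 24m replicate 3 (gap 0.858). Cp was at 4.18 CPM in 24m replicate 3 (gap 0.940), below the other 24m libraries. In Gfap, S100b, S100a6, Cp, Osmr, Stat3 and Aqp4, 24m replicate 1 was the highest or the lowest of its age, but its gap was under that value.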

How the results depend on the processing

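Under the alternatives run, the log2 fold changes of the 10 genes kept their sign in all 199 values, and 188 stayed on the same side of the thresholds. Gfap (1.35 to 1.69), S100b (-1.43 to -0.82), Serpina3n, Cd44, Osmr, Stat3 and Aqp4 were called in every alternative that tested them. Under a filter of 1 CPM in 4 libraries, neither Osmr nor any gene of the Serpina3 cluster list could be tested. The other 11 values were those of Vim, S100a6 and Cp, for which the cause was not tested: Vim (0.51 to 0.76) was called in 5 alternatives, S100a6 (-0.72 to -0.10) in 1 and Cp (0.20 to 0.82) was not called in 5. The number of the 10 genes called was 7 to 9 over all alternatives, and all genes called were 3492 at a log2 fold change of at least 1 in size, beside 7295 at 0.58. With each library left out in turn, 6440 to 8265 genes were called. Relative to the median of the homeostatic astrocyte genes, 4 members were separated by age (Stat3 higher, and Vim, S100b and S100a6 lower), beside 75.4% of all genes tested, and 7 members relative to the mean, beside 69.4%. With the replicate number as a replicate block, 7242 genes and 8 of the 10 were called, as 8 were without it. The numbers share no animal or batch in the labels, and same-numbered libraries correlated by -0.348 to 0.271, so they were not taken as pairs. List medians stayed within 1 SD of the libraries in 209 values and moved in 42. At 6m, Cd44 and Osmr rest on 16 to 34 counts per library, the fewest of the 10 genes, with standard errors of 0.19 and 0.24 on their log2 fold changes.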
